A study of Mus musculus with 84 samples.

Results

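The comparison described here is the effect of an MLL-ENL transgene on the RNA of sorted committed hematopoietic progenitor cells (HPC) of newborn mice, across all mouse genes. It takes 8 of the 84 libraries of the series: 4 from MLL-ENL mice (MLL-ENL 2, 3, 4 and 5) and 4 from control mice labelled wild type (control 2, 3, 4 and 5), chosen by their labels alone. MLL-ENL is the fusion of the histone methyltransferase gene KMT2A (MLL) with MLLT1 (ENL) that occurs in acute leukemia. The cells of both groups came from the liver of newborns (P0), and both received no doxycycline, which the labels call fetal induction of a tetracycline-regulated transgene. What drives the transgene, the strain, the litter and the number of animals behind a library were not given in the sources used here. Controls are therefore mice labelled wild type, and an effect of the transgene system itself and one of the fusion protein cannot be told apart. The other groups used for comparison were MLL-ENL and control pGM (pre-granulocyte-monocyte progenitors) and GMP (granulocyte-monocyte progenitors) of the same age, and MLL-ENL and control HPC of bone marrow at 10 weeks, also without doxycycline. The study asks at which age MLL-ENL starts leukemia most readily.

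As background, wild-type MLL marks the promoters of developmental regulators and keeps them active as blood stem cells divide. Fusions to ENL join the DNA-binding end of MLL to a protein of the transcription elongation machinery. In leukemias with such fusions the HOXA genes and their partner MEIS1 are held at a high level, and loss of either slows or stops the disease. Committed progenitors normally lower these genes as they move toward myeloid, dendritic, mast cell or erythroid fates.

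The libraries held 13.39 to 15.69 M counts on mouse genes in MLL-ENL mice and 11.57 to 16.09 M in controls, and a count was found on 17623 to 19350 genes. Reads on the human transgene stood at 21.1, 15.2, 13 and 12.9 CPM (reads scaled to the size of the library) in MLL-ENL libraries, against 0.124, 0.218, 0.251 and 0 CPM in controls, so the groups were separate as labelled (2-sided exact permutation p = 0.029, the smallest possible with 4 against 4). Mouse Kmt2a averaged 45.8 ± 10.7 CPM in MLL-ENL and 34.9 ± 11.3 CPM in control libraries (SD, n = 4 each). The progenitor genes Kit, Cd34, Gata2, Myb and Runx1 were all present, with Kit between 674 and 995 CPM in MLL-ENL libraries, against 473 to 654 CPM in controls. Some defining genes of mature T, NK and B cells were at or near 0. Cd3e had 2 counts in all MLL-ENL libraries together and 4 in all controls, Ncr1 had 0 in both, and Pax5 had 3 and 6. The B cell gene Cd79a, however, averaged 9.71 CPM in MLL-ENL and 6.53 CPM in control libraries. Listed genes of NK, innate lymphoid and T cells summed to 253 to 306 CPM in MLL-ENL libraries and 250.2 to 304 CPM in controls. The hepatocyte gene Alb averaged 2.14 CPM in MLL-ENL and 3.21 CPM in control libraries. Sex was not balanced: Xist stood at 97.0, 40.2, 15.4 and 69.0 CPM in MLL-ENL libraries, against 42.4, 0.751, 14.6 and 0.248 CPM in controls. Libraries with both Xist and the Y-linked Ddx3y were found in both groups. With the level of Y-linked genes as a covariate, 395 genes rose and 834 fell, against 361 and 772 without it. In a principal component analysis of the 8 libraries the first component (46.5% of the variance) separated the genotypes, and the second (20.5%) set both libraries numbered 2 apart from the others.

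Of 14899 mouse genes tested, 361 were higher in MLL-ENL HPC (2.42% of those tested) and 772 were lower (5.18%), by edgeR's quasi-likelihood F test at a false discovery rate (FDR) of 0.05. Genes whose 4 MLL-ENL values all lay above the 4 control values numbered 1129 (7.58%), and those whose values all lay below numbered 1577 (10.6%). Of the called genes, 339 of the 361 that rose and 683 of the 772 that fell had no overlap. The genes that rose and those that fell differed in level. The median control mean was 5.3 CPM for genes that rose and 44.6 CPM for genes that fell, against 12.9 CPM for all genes tested, and 100 of the 361 genes that rose (27.7%) had a control mean under 1 CPM. Changes over 4-fold numbered 108 among the genes that rose and 185 among those that fell. With 1 library left out at a time, 215 to 296 genes rose and 355 to 627 fell. The count of genes that rose was 215 without control 2 and 226 without control 3; that of genes that fell was 355 without MLL-ENL 4, 358 without MLL-ENL 5, 469 without MLL-ENL 3 and 478 without control 2. The balance of the directions moved with the scaling and the tool, with 31.9% of calls higher here, 42% with relative log expression (RLE) scaling and 43.6% in DESeq2. With the 8 libraries fitted alone it turned round, with 820 genes higher and 758 lower (52% of calls higher).

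Homeobox genes of the Hoxa cluster were higher in MLL-ENL HPC. Hoxa9 (chromosome 6, 52223100 to 52231089, minus strand, GRCm38) encodes a transcription factor that sustains self-renewal of progenitors. It stood at 84.8, 73.9, 57.8 and 64.3 CPM in MLL-ENL libraries, against 30.8, 32.5, 35.6 and 25.2 CPM in controls. The lowest MLL-ENL library thus lay well above the highest control (log2 fold change 1.18 ± 0.22, SE; adjusted p = 0.00055). Hoxa10, its neighbour in the cluster, stood at 32.9, 32.7, 28.4 and 37.1 CPM against 7.60, 8.67, 14.8 and 10.3 CPM in controls (1.66 ± 0.35, adjusted p = 0.0021). Hoxa7 rose to 99.4, 115, 111 and 115 CPM, against 52.9, 62.4, 63.2 and 41.8 CPM in controls (1.0 ± 0.17, adjusted p = 0.00019). Hoxa5, further toward the 3′ end, rose to 14.9, 9.34, 6.44 and 7.53 CPM, against 1.09, 2.66, 3.17 and 1.74 CPM in controls (2.14 ± 0.35, adjusted p = 8.9e-05). None of these 4 genes overlapped between the groups, and each passed in every fit that left out 1 library. Of the 8 Hoxa genes tested 6 rose and none fell, with a median log2 fold change of 1.77 against -0.03 for all genes.

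The remaining Hoxa genes were low. Hoxa2 averaged 1.31 CPM in MLL-ENL and 0.203 CPM in control libraries and Hoxa3 3.16 and 0.849 CPM. Both passed with all 8 libraries, but Hoxa2 failed in all 8 fits that left out 1 library (adjusted p between 0.052 and 0.098), and Hoxa3 failed without control 2, 3 or 5, or without MLL-ENL 2 (between 0.059 and 0.12). Hoxa4 and Hoxa6 did not pass, at 0.668 and 0.634 CPM in MLL-ENL libraries against 0.107 and 0.253 CPM in controls. Transcripts of the cluster overlap one another and the strand setting of the counting was not given in the sources used here. Among 50-base words of the annotated exons, 12.7% of those of Hoxa2 also lay in another gene on the same strand, and 21.7% of those of Hoxa3 and 18.7% of those of Hoxa7 on the opposite strand, so these 3 genes are uncertain in that respect.

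Beyond the Hoxa cluster, Hoxb5 rose to 2.43, 1.74, 2.88 and 3.24 CPM, against 0.403, 0.136, 0.244 and 0.827 CPM in controls (log2 fold change 2.68 ± 0.69, adjusted p = 0.011). Hoxb4, known for expanding stem cells, averaged 1.89 ± 0.672 CPM in MLL-ENL and 1.30 ± 0.550 CPM in control libraries (SD, 4 libraries each) and did not pass (0.53 ± 0.35, adjusted p = 0.39). No other Hoxb gene was high enough to be tested. Meis1, the cofactor that binds DNA together with HOXA9, rose to 514, 571, 639.9 and 666 CPM, against 254, 284, 309 and 258 CPM in controls (1.11 ± 0.22, adjusted p = 0.0011). Every MLL-ENL library lay above every control. Of the 8 tested partners of Hox proteins Meis1 alone rose. Pbx2, Pbx4 and Pknox1 did not pass.

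**Figure D1:**
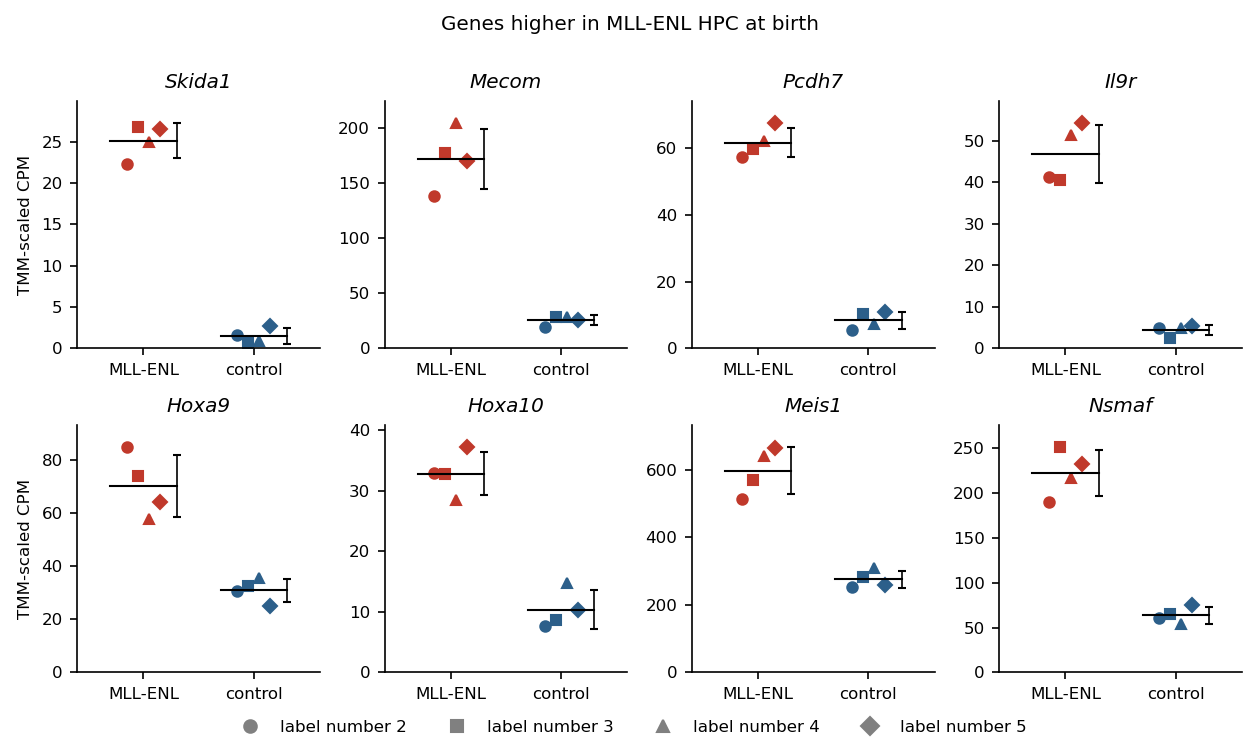
Level in CPM (linear axis that starts at 0) of 8 genes that rose, with 1 point per library, its shape giving the number of the label, and a line and bar for the mean and SD of each group, MLL-ENL left of control. In none of the 8 did the MLL-ENL libraries overlap with the controls, as with Skida1 between 22.3 and 26.8 CPM in MLL-ENL libraries against 0.614 to 2.73 CPM in controls. Absence of overlap was part of the rule that named the largest rises.

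Among 23 genes listed as targets of MLL fusions, not counting the Hox genes and Meis1, 4 rose and none fell (median log2 fold change 0.39). Skida1 (chromosome 2, 18040676 to 18049051), a gene of the SKI and DACH domain family, had the largest rise among annotated genes of at least 1 on the mean log2 CPM scale. It stood at 22.3, 26.8, 24.9 and 26.5 CPM in MLL-ENL libraries, against 1.67, 0.614, 0.914 and 2.73 CPM in controls (4.09 ± 0.49, adjusted p = 4.6e-07). Sva (chromosome 6, 42038394 to 42042851), a gene of seminal vesicle proteins that was under that level and is named after its values were seen, had 351 counts in all MLL-ENL libraries together and 0 in all controls (adjusted p = 3.6e-10). It stood at 4.18, 6.29, 4.35 and 5.18 CPM in MLL-ENL libraries. It was likewise separate in the other populations, at 4.72 CPM in MLL-ENL and 0 CPM in control pGM, 4.80 and 0.0199 CPM in GMP, and 1.89 and 0 CPM in HPC at 10 weeks. Whether its reads come from a transgene allele was not tested. Mecom (chromosome 3, 29951296 to 30548008), the zinc finger factor EVI1 that is needed for stem cell upkeep, stood at 138, 177, 204 and 169.6 CPM, against 19.3, 28.9, 28.8 and 25.5 CPM in controls (2.75 ± 0.36, adjusted p = 1.9e-06). Igf2bp2, an RNA-binding protein, averaged 91.5 ± 12.1 CPM against 42.3 ± 6.01 CPM in controls (SD, 4 libraries each; 1.11 ± 0.26, adjusted p = 0.0051). The fourth was Lmo2, an adaptor of stem cell transcription complexes (0.76 ± 0.21, adjusted p = 0.018; 0.05 without control 4). Listed targets that did not pass included Mef2c at 824 ± 189 CPM against 588 ± 123 CPM in controls, and Cdk6 at 241 ± 72.8 CPM against 422 ± 140.5 CPM in controls. None of the 35 tested genes of the MLL complex and its elongation partners passed in either direction (median 0.06).

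Stem cell regulators followed in part. Of 20 transcription factors of stem cells 6 rose and 1 fell. Of those that rose, Mecom, Hoxa9, Meis1, Hoxb5 and Lmo2 are given above, and the sixth was Hlf. This factor of long-lived stem cells averaged 323 ± 37.8 CPM in MLL-ENL and 151 ± 23.3 CPM in control libraries (SD, 4 libraries each; 1.10 ± 0.35, adjusted p = 0.043), yet it failed in 7 of the 8 fits that left out 1 library, all but the one without MLL-ENL 3. Gata2, Runx1, Etv6, Fli1 and Gfi1b did not pass. Of 23 surface and niche genes of stem cells 2 rose and 4 fell, and log2 fold changes on this list ran from -3.01 to 2.19. Angpt1, the ligand that keeps stem cells quiescent through its receptor Tie2, rose to 212, 177, 224 and 158 CPM, against 94.5, 81.1, 102 and 81.9 CPM in controls (1.10 ± 0.23, adjusted p = 0.002). The other was Trpc6, a calcium channel, which failed in every fit that left out 1 library. Cd34, the sialomucin of early progenitors, went the other way. It stood at 624, 982, 877 and 847 CPM in MLL-ENL libraries and at 1152, 1539, 1475 and 1385 CPM in controls (-0.74 ± 0.18, adjusted p = 0.0061).

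Antigens used to sort progenitors were among the genes that differed. Of 12 such genes 4 fell and none rose: Cd34, Cd48 (-0.70 ± 0.20, adjusted p = 0.021), Fcgr2b and Fcgr3. Fcgr2b, an inhibitory Fc receptor, stood at 7.69, 8.16, 6.38 and 9.31 CPM in MLL-ENL libraries, against 25.2, 24.3, 23.3 and 33.0 CPM in controls (-1.74 ± 0.28, adjusted p = 6.5e-05). Fcgr3 averaged 7.33 ± 1.4 CPM against 26.1 ± 8.67 CPM in controls (SD, 4 libraries each; -1.83 ± 0.55, adjusted p = 0.033). Antibodies to the products of these last 2 genes are commonly used together to gate granulocyte-monocyte progenitors. Kit and Flt3 did not pass (0.59 ± 0.28, adjusted p = 0.21, and 0.90 ± 0.53, adjusted p = 0.32), although their values did not overlap. The gates used for HPC were not given in the sources used here, so a shift of cells within the gate was not tested. The count was 2 of 12 without control 2 or 4, or without MLL-ENL 3, 4 or 5; Cd48 missed the threshold in each of these 5 fits, and Fcgr3 in these and without MLL-ENL 2.

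Nsmaf (chromosome 4, 6396207 to 6454271), which encodes an adaptor of the tumor necrosis factor receptor, had the smallest p-value of all genes that rose. Its libraries stood at 190.3, 251, 217 and 233 CPM, against 60.3, 64.8, 53.6 and 75.7 CPM in controls (1.81 ± 0.16, adjusted p = 1.4e-10). The receptor for interleukin 9, Il9r, a growth signal for mast cells and T cells, rose to 41.2, 40.5, 51.4 and 54.2 CPM, against 4.95, 2.59, 4.82 and 5.46 CPM in controls (3.39 ± 0.58, adjusted p = 0.00017). The protocadherin Pcdh7 rose to 57.2, 59.6, 62.0 and 67.3 CPM, against 5.41, 10.4, 7.19 and 10.8 CPM in controls (2.86 ± 0.35, adjusted p = 6.1e-07). In all 3 genes every MLL-ENL library lay far above every control. Absence of overlap was required of genes named by p-value or by size of rise. A gene on the opposite strand shared 20.4% of the 50-base words of Pcdh7, so its reads could in part belong to that gene.

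Further large rises included 3 genes better known from tissues outside the blood. Chga, chromogranin A of neuroendocrine granules, stood at 13.1, 22.9, 21.9 and 17.4 CPM, against 2.36, 4.03, 3.17 and 2.73 CPM in controls (2.61 ± 0.51, adjusted p = 0.0012). Postn, the matrix protein periostin, stood at 59.1, 55.5, 40.8 and 30.9 CPM, against 5.01, 5.53, 6.34 and 3.89 CPM in controls (3.16 ± 0.65, adjusted p = 0.0016). Hnf4a, a nuclear receptor of hepatocytes, rose to 203, 190.2, 294 and 228 CPM, against 74.4, 92.0, 84.7 and 88.5 CPM in controls (1.43 ± 0.29, adjusted p = 0.0013). It was the one gene of 11 tested hepatocyte genes that passed; Afp stood at 20.4 CPM in MLL-ENL and 10.0 CPM in control libraries (adjusted p = 0.051). Of 18 listed genes of stroma and endothelium 10 were high enough to be tested, and 3 rose: Postn, Pecam1 and the proteoglycan Bgn (1.64 CPM in MLL-ENL and 0.394 CPM in control libraries). The summed level of the list was 539 to 679.9 CPM in MLL-ENL libraries, against 370.1 to 537 CPM in controls, with Egfl7 the most abundant at 293 and 292 CPM. The collagen gene Col1a1 had 16 counts in all MLL-ENL libraries together and 7 in all controls, and the endothelial cadherin Cdh5 had 28 and 26. Whether stromal or endothelial RNA had a part in the rise of Postn or Pecam1 was not tested. Pecam1, an adhesion molecule of endothelium, platelets and stem cells, averaged 166 ± 26.7 CPM in MLL-ENL and 95.0 ± 12.1 CPM in control libraries (SD, 4 libraries each; 0.81 ± 0.18, adjusted p = 0.0038).

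Receptors, enzymes and signalling proteins were also among the largest rises. Ednra, the receptor for endothelin, averaged 6.76 ± 1.75 CPM in MLL-ENL and 1.34 ± 0.242 CPM in control libraries (2.34 ± 0.57, adjusted p = 0.0071). Xdh, xanthine dehydrogenase of purine breakdown, rose to 13.9, 20.7, 15.2 and 15.3 CPM, against 2.36, 3.0, 3.78 and 3.22 CPM in controls (2.40 ± 0.44, adjusted p = 0.00046). Irak3, an inhibitor of signals from Toll-like receptors, rose to 12.8, 17.0, 16.0 and 12.4 CPM, against 2.88, 4.50, 2.13 and 3.97 CPM in controls (2.12 ± 0.32, adjusted p = 2.8e-05). Each of these genes was separate between the groups, which the rule for naming the largest rises required. Zc3h12c, a ribonuclease of the regnase family, averaged 12.2 ± 0.747 CPM against 2.45 ± 0.498 CPM in controls (2.31 ± 0.34, adjusted p = 1.8e-05), and Large2, a glycosyltransferase of dystroglycan, 6.44 ± 0.603 CPM against 1.30 ± 0.258 CPM (2.30 ± 0.43, adjusted p = 0.00055; SD, 4 libraries each). Smaller in level were the transporter Slc16a11, the kinase Pak3, the secreted protein Ndnf, the small GTPase Rab6b and the secreted inhibitor Wfikkn2. These 5 rose by 2.13 to 3.61 on the log2 scale, with control means of 0.727 to 1.39 CPM.

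Genes of the fetal program were higher in part. Of 18 genes listed as fetal and neonatal, 6 rose and 1 fell (median 0.43). Lin28b, the RNA-binding protein that holds blood progenitors in a fetal state, rose to 25.8, 40.1, 30.3 and 44.3 CPM, against 10.8, 16.0, 11.9 and 13.5 CPM in controls (1.43 ± 0.29, adjusted p = 0.002). Igf2bp2 is on this list as well. Igf2, the fetal growth factor, averaged 5.49 ± 1.47 CPM in MLL-ENL and 0.782 ± 0.370 CPM in control libraries (SD, 4 libraries each; 2.79 ± 0.74, adjusted p = 0.015; 0.058 without control 4), and 61.2% of its 50-base words also lay in another gene on the same strand. Trim71, an RNA-binding ubiquitin ligase of early development, had 99 counts in all MLL-ENL libraries together and 1 in all controls, and the embryonic globin Hbb-bh1 had 59 and 2. Both are too low in controls for a fold change and neither passed in DESeq2 (adjusted p = 0.084 and 0.47). The 1 gene that fell, the X-linked proteoglycan Gpc3, stood at 2.26, 2.93, 1.98 and 5.38 CPM in MLL-ENL libraries, against 16.1, 14.3, 10.3 and 17.8 CPM in controls (-2.21 ± 0.35, adjusted p = 4.8e-05). The count of genes that rose was 3 without MLL-ENL 5.

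Megakaryocyte genes were divided, with counts to be read beside 2.42% higher and 5.18% lower among all genes tested. Of 23 tested 2 rose: Gp9, a chain of the von Willebrand factor receptor, at 111, 119, 153 and 95.2 CPM in MLL-ENL libraries against 54.4, 49.1, 84.3 and 41.3 CPM in controls (1.06 ± 0.22, adjusted p = 0.0021), and Nfe2, a factor of platelet formation, at 227 ± 10.1 CPM against 131 ± 24.0 CPM (SD, 4 libraries each; 0.80 ± 0.16, adjusted p = 0.0012). Another 4 fell, among them the tetraspanin Cd9 (84.2 ± 23.9 against 169 ± 22.4 CPM in controls; -1.0 ± 0.22, adjusted p = 0.0033) and Mmrn1, multimerin of platelet granules (23.3 ± 2.66 against 82.6 ± 17.9 CPM; -1.83 ± 0.41, adjusted p = 0.0037). The number that fell was 2 without control 5 or without MLL-ENL 2, 3 or 5. None of 23 erythroid genes passed in either direction; their summed level was 1847 to 2593 CPM in MLL-ENL libraries and 1704 to 2569 CPM in controls.

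The genes that fell included those for antigen presentation on MHC class II. These molecules are made of an alpha and a beta chain that assemble on the invariant chain Cd74 and are loaded with peptide in late endosomes by H2-DM, under the control of H2-O. Their genes lie together on mouse chromosome 17 and share a promoter module of W, X and Y boxes, on which the coactivator CIITA assembles with RFX and NF-Y. Since members moved together, a stretch of 100 bases upstream of the RefSeq start of 6 of them is shown to let the shared element be compared. Capitals mark GATTGG, the core of the Y box read by NF-Y (the inverted CCAAT). The windows are those of RefSeq on GRCm38.p6, 5′ to 3′ on the strand of the gene. RefSeq starts differ from those of GENCODE, which give the gene positions and the symbols of the counts used here: the windows of H2-DMa and H2-DMb2 lie within the span of their GENCODE genes but in no exon, and 9 bases of that of H2-Oa lie in its first exon.
H2-Aa chr17:34287854-34287953 (minus strand): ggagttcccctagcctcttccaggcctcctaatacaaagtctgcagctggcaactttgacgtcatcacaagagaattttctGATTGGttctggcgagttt
H2-Eb1 chr17:34305737-34305836 (plus strand): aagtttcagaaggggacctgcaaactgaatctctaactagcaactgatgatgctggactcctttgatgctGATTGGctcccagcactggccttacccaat
H2-DMa chr17:34122702-34122801 (plus strand): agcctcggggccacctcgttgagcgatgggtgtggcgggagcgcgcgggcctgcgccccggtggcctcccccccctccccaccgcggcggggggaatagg
H2-DMb2 chr17:34145119-34145218 (plus strand): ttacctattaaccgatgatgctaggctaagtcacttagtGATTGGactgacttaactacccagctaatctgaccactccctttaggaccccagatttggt
H2-Oa chr17:34092249-34092348 (plus strand): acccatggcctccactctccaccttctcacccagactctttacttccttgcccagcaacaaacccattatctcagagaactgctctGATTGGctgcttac
H2-Ob chr17:34238775-34238874 (plus strand): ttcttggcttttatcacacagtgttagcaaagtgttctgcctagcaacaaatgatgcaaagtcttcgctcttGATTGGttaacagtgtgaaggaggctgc
The first 4 belong to genes that fell and the last 2 to genes that did not pass. All hold the motif but H2-DMa, which lacks it in both of its RefSeq windows. These begin at 34122702 and 34125388, inside a GENCODE gene that runs from 34119541 to 34139101. Other possible starts of H2-DMa were not searched, so whether it has a Y box elsewhere was not tested. It was found in 7 of 8 class II genes with an entry on the strand of the gene, and in 4.33% of 32851 promoter windows of all genes (8.36% on either strand). H2-Ab1 and Cd74 had no entry, and the window of H2-DMb1, which holds the motif, is not shown since 89 of its bases lie in the first GENCODE exon. A match of letters is a description and does not show binding. In the windows searched it did not separate the genes that fell from those that did not pass.

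Of 9 class II chains tested 7 fell and none rose, with a median log2 fold change of -2.0, and 7 fell in each of the 8 fits that left out 1 library. Among the classical chains, H2-Aa (chromosome 17, 34282744 to 34287823) stood at 569, 225, 163 and 355 CPM in MLL-ENL libraries, against 3206, 2406, 1579 and 3991 CPM in controls (-3.09 ± 0.52, adjusted p = 0.00012). Its partner chain H2-Ab1 stood at 463, 178, 121 and 237 CPM, against 2647, 1664, 984 and 2468 CPM in controls (-2.96 ± 0.38, adjusted p = 1.5e-06). H2-Eb1 stood at 218, 89.0, 72.6 and 145 CPM, against 1408, 1151, 703 and 1606 CPM in controls (-3.21 ± 0.49, adjusted p = 3.6e-05). In all 3 genes MLL-ENL 2 was the highest of its group and MLL-ENL 4 the lowest, control 4 was the lowest control, and the groups did not overlap. The invariant chain Cd74, on chromosome 18, followed the same order, at 2074, 961, 708 and 1546 CPM against 13137, 10374, 5743 and 15399 CPM in controls (-3.08 ± 0.53, adjusted p = 0.00018).

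The peptide-loading chains fell less in size but with less spread. H2-DMb1 (chromosome 17, 34153072 to 34160230) stood at 44.8, 32.9, 33.2 and 39.3 CPM in MLL-ENL libraries, against 185, 142, 96.3 and 181 CPM in controls (-2.0 ± 0.18, adjusted p = 1.8e-10). H2-DMa stood at 165, 206, 191 and 224 CPM, against 610.4, 544, 425 and 702 CPM in controls (-1.54 ± 0.21, adjusted p = 3.6e-06). The neighbouring H2-DMb2, named here after its values were seen, stood at 19.2, 16.1, 19.9 and 15.8 CPM, against 36.4, 31.5, 30.3 and 46.3 CPM in controls (-1.02 ± 0.24, adjusted p = 0.0055). H2-DMb1 shared 22.7% of its 50-base words with other genes on the same strand, mainly H2-DMb2, so the split of reads between the pair is uncertain. The chains of the inhibitor H2-O did not pass. H2-Oa averaged 29.9 ± 0.738 CPM in MLL-ENL and 43.9 ± 8.62 CPM in control libraries and H2-Ob 61.9 ± 17.0 and 90.4 ± 15.8 CPM (SD, 4 libraries each; adjusted p = 0.12 and 0.26).

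**Figure D2:**
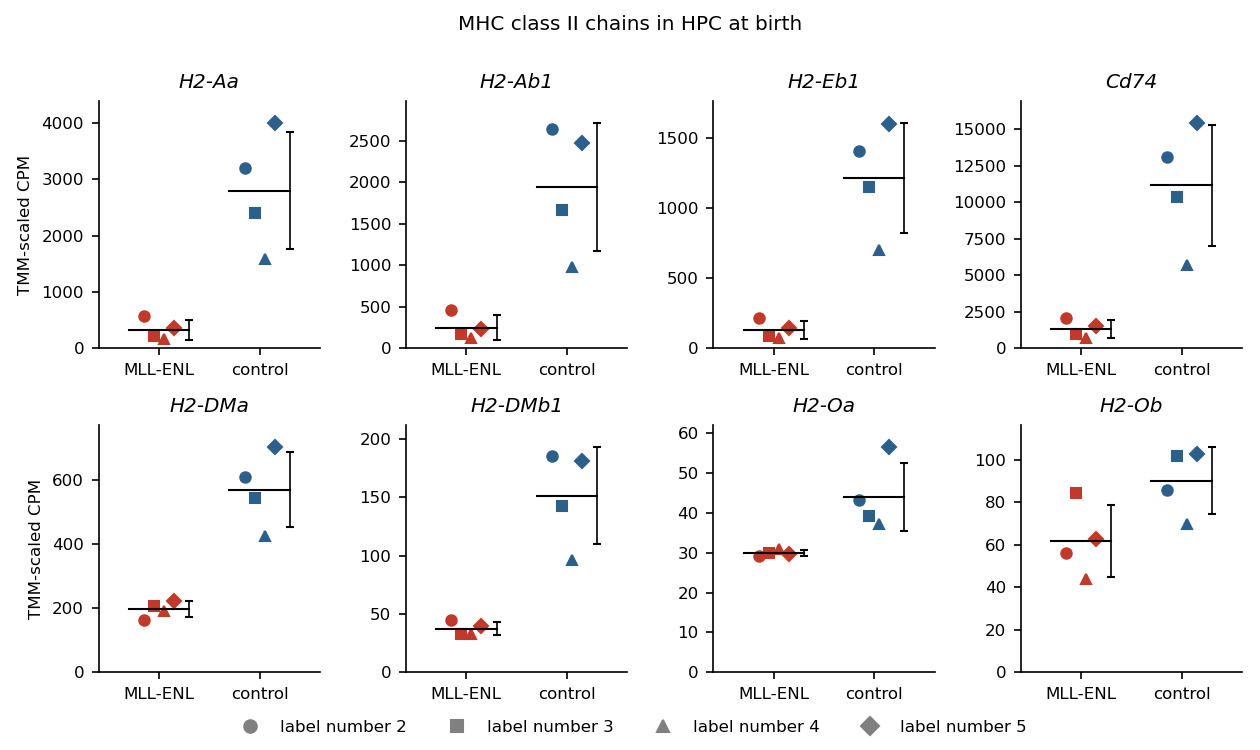
Level in CPM (linear axis that starts at 0) of 8 MHC class II chains, with 1 point per library, its shape giving the number of the label, and a line and bar for the mean and SD of each group, MLL-ENL left of control. The MLL-ENL libraries lay below all controls except for H2-Ob, and Cd74 ran from 708 to 2074 CPM in MLL-ENL libraries against 5743 to 15399 CPM in controls.

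Among 16 tested regulators and costimulators of this pathway 6 fell and none rose. Ciita, the coactivator on which class II transcription depends, stood at 13.3, 3.11, 3.90 and 4.65 CPM in MLL-ENL libraries, against 56.5, 13.2, 16.4 and 29.6 CPM in controls (-2.21 ± 0.56, adjusted p = 0.011). Here MLL-ENL 2 lay just above control 3, so the groups overlapped, and the call was lost without control 2 (adjusted p = 0.092), MLL-ENL 3 (0.052), MLL-ENL 4 (0.056) or MLL-ENL 5 (0.05). Nfyb, a subunit of the Y box factor NF-Y, stood at 59.3, 60.6, 61.1 and 64.5 CPM, against 86.5, 89.5, 94.3 and 103 CPM in controls (-0.60 ± 0.13, adjusted p = 0.0018). Another subunit, Nfya, averaged 34.2 ± 3.95 CPM against 37.3 ± 4.76 CPM (SD, 4 libraries each) and did not pass. Ctss, the protease that trims the invariant chain, stood at 106, 111, 107 and 109.6 CPM, against 267, 292, 259.5 and 423 CPM in controls (-1.52 ± 0.33, adjusted p = 0.0024). Ifi30, the reductase that unfolds antigens in the lysosome, stood at 7.83 ± 0.691 CPM against 36.4 ± 6.86 CPM (SD, 4 libraries each; -2.21 ± 0.33, adjusted p = 1.9e-05), and the ubiquitin ligase March1, which removes class II from the surface, also fell (-2.65 ± 0.63, adjusted p = 0.0056). Cd86 and Rfxank did not pass. Of 19 genes of MHC class I 2 fell, 1 in every fit that left out a library, and the median was -0.02. Among all genes tested 5.18% fell.

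Genes of type 1 conventional dendritic cells, which take up dead cells and present their antigens, fell along with class II. Of 22 tested 18 fell and none rose (median -2.49), and 12 to 20 fell when 1 library was left out. Summed over the list, the level was 1284, 799, 811 and 915 CPM in MLL-ENL libraries, against 4421, 2906, 2192 and 4529 CPM in controls. Id2, the regulator needed for this lineage, stood at 342, 169, 111 and 230.4 CPM, against 1271, 1087, 848 and 1825 CPM in controls (-2.56 ± 0.36, adjusted p = 9.7e-06). Itgae, the integrin CD103, stood at 9.61, 1.99, 1.86 and 2.35 CPM, against 86.0, 48.0, 36.0 and 86.1 CPM in controls (-4.01 ± 0.59, adjusted p = 1.9e-05). The chemokine receptor Xcr1, which defines the type, stood at 3.34, 0.560, 0.904 and 0.209 CPM, against 52.1, 6.41, 4.75 and 11.4 CPM in controls (-3.89 ± 0.76, adjusted p = 0.00091). The groups did not overlap in any of the 3, and MLL-ENL 2 was the highest of its group in each. In bulk RNA, fewer cells of a type and less RNA per cell cannot be told apart, here and in the groups that follow. Whether cells of this type carried the fall of class II was not tested.

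Further members of the list were Naaa, an amidase of lysosomes (-2.92 ± 0.48, adjusted p = 9.5e-05), the small GTPase Rab7b (-3.06 ± 0.49, adjusted p = 6.3e-05), the inhibitory receptor Btla (-2.27 ± 0.36, adjusted p = 6.5e-05) and the nucleic acid sensor Tlr3 (-2.53 ± 0.55, adjusted p = 0.0026). Each was below every control in all 4 MLL-ENL libraries. Dnase1l3, a secreted nuclease of dendritic cells and macrophages, stood at 21.3, 3.36, 4.24 and 6.01 CPM in MLL-ENL libraries, against 210.4, 143, 62.3 and 169 CPM in controls (-4.06 ± 0.65, adjusted p = 6.6e-05). Irf8, the factor that sets the fate of these cells, did not pass, at 97.0, 37.2, 42.3 and 49.8 CPM against 285, 117, 86.9 and 343 CPM in controls (-1.88 ± 0.64, adjusted p = 0.064). Its groups overlapped, with MLL-ENL 2 above control 4. Cd24a did not pass either, at 159 ± 21.1 CPM against 142 ± 5.96 CPM in controls (SD, 4 libraries each).

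Of 25 genes of type 2 dendritic cells and monocytes 9 fell and 1 rose. Lgals3, galectin 3 of monocytes, stood at 21.7, 15.6, 11.5 and 26.7 CPM in MLL-ENL libraries, against 120.3, 134, 128 and 185 CPM in controls (-2.91 ± 0.54, adjusted p = 0.00048). Mpeg1, a pore-forming protein of phagocytes, fell (-2.85 ± 0.56, adjusted p = 0.00095), as did Ccr2, the receptor that calls monocytes to tissue (-2.84 ± 0.64, adjusted p = 0.0038). Csf1r, the receptor for the growth factor of macrophages, did not pass, at 48.3, 26.2, 60.3 and 28.6 CPM against 163, 121, 95.8 and 126 CPM in controls (-1.63 ± 0.56, adjusted p = 0.064), though its groups did not overlap. The 1 gene that rose was Itgam, CD11b of myeloid cells, at 70.3, 55.1, 92.9 and 68.9 CPM against 44.3, 26.7, 31.6 and 31.4 CPM in controls (1.10 ± 0.29, adjusted p = 0.015). It failed without control 3 (adjusted p = 0.054) and without MLL-ENL 4 (0.056), and 66.3% of its 50-base words also lay in another gene. Of 17 plasmacytoid dendritic cell genes 2 fell (1 without MLL-ENL 4), to be read beside 5.18% lower among all genes tested. The summed level of that list was 797 to 1532 CPM in MLL-ENL libraries, against 786 to 1531 CPM in controls. Of 13 liver macrophage genes 1 fell, a share near that of all genes tested. It was the surface receptor Adgre1, F4/80 of macrophages (-1.99 ± 0.59, adjusted p = 0.028). None fell without control 2 or 5, or without MLL-ENL 3, 4 or 5.

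Mast cell granule genes formed another group with large falls. Of 17 tested 7 fell and none rose (median -1.70), and 6 to 8 fell when 1 library was left out. Cpa3 (chromosome 3, 20215620 to 20242181), the carboxypeptidase of mast cell granules, stood at 14.1, 9.15, 23 and 16.9 CPM in MLL-ENL libraries, against 141, 98.5, 272 and 161 CPM in controls (-3.41 ± 0.59, adjusted p = 0.00022). The chymase Cma1 stood at 22.1, 8.47, 22.3 and 12.0 CPM, against 186, 144, 558 and 172 CPM in controls (-4.03 ± 0.85, adjusted p = 0.002). The tryptase Tpsb2 stood at 67.8, 23, 41.8 and 54.6 CPM, against 634, 460.4, 1476 and 987 CPM in controls (-4.25 ± 1.03, adjusted p = 0.0075). Control 4 was the highest library in all 3, and the highest MLL-ENL library lay below the lowest control. Mcpt4, a protease of connective tissue mast cells, stood at 0.735, 0, 0.169 and 0.314 CPM, against 24.2, 25.7, 38.3 and 3.64 CPM in controls (-6.18 ± 1.05, adjusted p = 0.00024). Tpsab1 and Tph1, the enzyme that starts serotonin synthesis, fell by 4.60 ± 0.77 and 4.44 ± 0.88 on the log2 scale (adjusted p = 0.00024 and 0.0018).

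Srgn and Hdc, granule genes that other blood cells also express, did not pass. The proteoglycan Srgn averaged 1023 ± 141 CPM in MLL-ENL and 990.1 ± 158 CPM in control libraries, and the histamine enzyme Hdc 70.1 ± 37.2 and 99.7 ± 57.4 CPM (SD, 4 libraries each). Among 24 receptors and regulators of mast cells and basophils 8 fell and none rose, but the count was 3 without control 4 or without MLL-ENL 5, 4 without MLL-ENL 3 or MLL-ENL 4, and 5 without control 2 or 5, or without MLL-ENL 2. The IgE receptor chain Fcer1a had 2 counts in all MLL-ENL libraries together and 260 in all controls. Csf2rb, the shared chain of the receptors for interleukin 3, interleukin 5 and GM-CSF, stood at 92.9, 84.9, 119 and 125 CPM, against 196, 232, 209 and 251 CPM in controls (-1.07 ± 0.23, adjusted p = 0.0025), and passed in every such fit. No eosinophil gene passed of 10. Neutrophil genes summed to 889, 1736, 1712 and 2004 CPM in MLL-ENL libraries, against 4531, 3373, 2781 and 3503 CPM in controls, so the sums did not overlap. Of the 24 single genes 3 fell, and none did without control 2 or without MLL-ENL 3, 1 without control 5 or without MLL-ENL 2, 4 or 5. Mpo, the peroxidase of early granules, did not pass (591, 1207, 1109.9 and 1451 CPM against 3922, 2809, 2113 and 2874 CPM; -1.43 ± 0.49, adjusted p = 0.067).

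**Figure D3:**
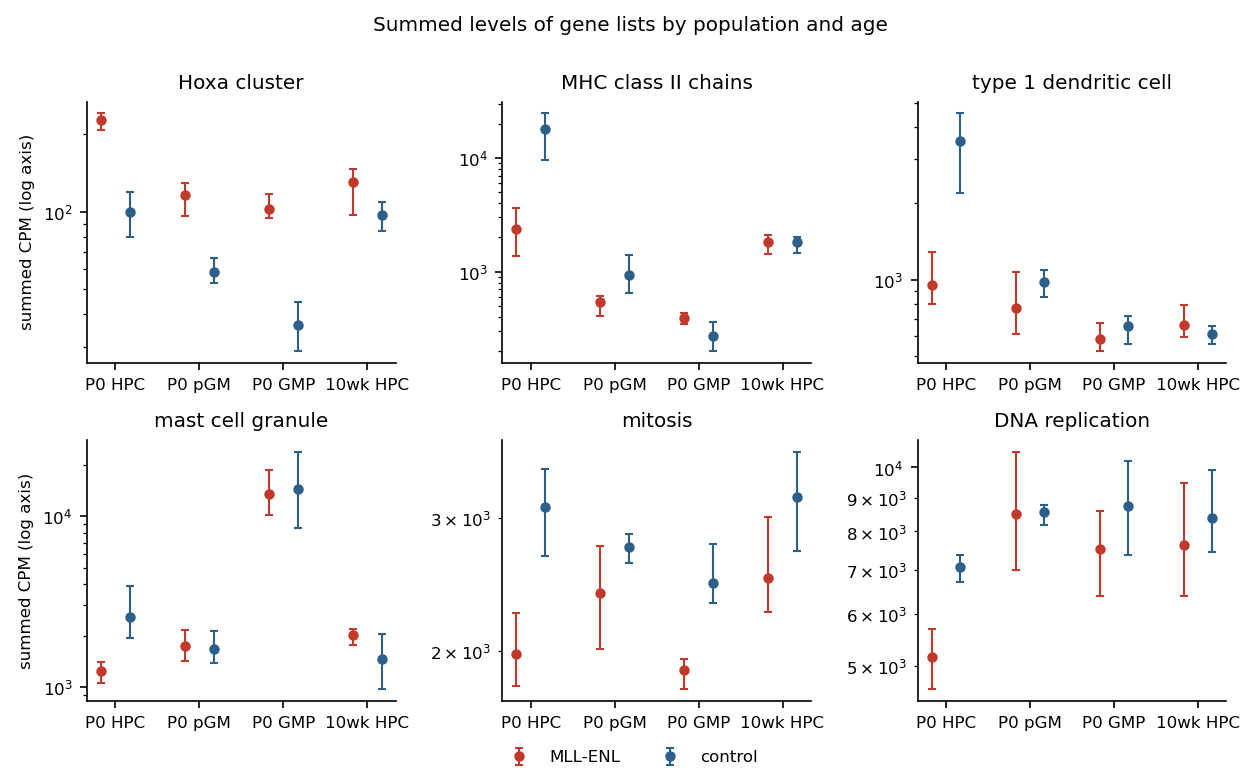
Summed level in CPM (log axis) of 6 gene lists in newborn HPC, pGM and GMP and in HPC at 10 weeks, points at the group mean and bars from the lowest to the highest library, MLL-ENL left of control and the HPC library labelled 73 included. In newborn HPC the bars of the groups did not overlap in any of the 6 lists, with class II chains at 1385 to 3639 CPM in MLL-ENL libraries against 9668 to 24553 CPM in controls.

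Receptors of myeloid and dendritic cells fell along with these lists. Of 31 Fc receptors and lectins 14 fell and none rose (median -1.38; 7 without MLL-ENL 4 and 9 without MLL-ENL 5). Fcgrt, the neonatal Fc receptor that recycles IgG, stood at 67.5, 49.9, 63.8 and 53.5 CPM in MLL-ENL libraries, against 189.8, 162, 151 and 223 CPM in controls (-1.63 ± 0.35, adjusted p = 0.0023). Siglece, an inhibitory lectin, stood at 5.43, 3.42, 5.87 and 5.59 CPM, against 25.6, 12.8, 24.3 and 17.5 CPM in controls (-1.98 ± 0.35, adjusted p = 0.00032). The lectin Clec12a, a receptor for uric acid crystals, also fell (-2.17 ± 0.45, adjusted p = 0.0019). Of 29 receptors for chemokines and lipid mediators 11 fell and none rose (median -0.72), with 6 without MLL-ENL 4 or MLL-ENL 5 and 7 without control 2 or MLL-ENL 3. The prostaglandin E receptor Ptger2 stood at 12.2, 12.4, 9.04 and 17.0 CPM, against 34.2, 43.5, 39.2 and 43.2 CPM in controls (-1.66 ± 0.24, adjusted p = 1.1e-05). Gpr183, which steers cells along oxysterol gradients, averaged 7.64 ± 2.95 CPM against 32.1 ± 9.60 CPM in control libraries (SD, 4 libraries each; -2.07 ± 0.48, adjusted p = 0.0048). The part of dendritic and mast cells in these falls was not tested.

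Cst3 (chromosome 2, 148871722 to 148875692), the secreted cysteine protease inhibitor cystatin C, had the smallest p-value of all genes. It stood at 929, 671, 519 and 725 CPM in MLL-ENL libraries, against 4717, 3873, 2282 and 5312 CPM in controls (-2.51 ± 0.20, adjusted p = 4.3e-11). The order of the libraries was that of the class II chains, with MLL-ENL 2 highest and MLL-ENL 4 lowest of their group and control 4 the lowest control. Of 37 lysosome genes 11 fell and none rose (median -0.33). Psap, the precursor of the saposins that help break down sphingolipids, stood at 824, 988, 1018 and 1058 CPM, against 3501, 3189, 2069 and 4233 CPM in controls (-1.74 ± 0.27, adjusted p = 5.3e-05). Gm2a, the activator protein for ganglioside breakdown, stood at 579.5, 421, 579.8 and 518 CPM, against 1931, 1584, 1071 and 2352 CPM in controls (-1.73 ± 0.18, adjusted p = 2.7e-08). Npc2, a cholesterol carrier of lysosomes, fell less (-0.68 ± 0.15, adjusted p = 0.0032). Ctsd and Ctsb, the proteases cathepsin D and B, did not pass, at 741 ± 159 and 485 ± 77.9 CPM in MLL-ENL libraries against 728 ± 123 and 641 ± 32.7 CPM in controls (SD, 4 libraries each).

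Several genes with small p-values belonged to none of these lists. Maoa, the monoamine oxidase encoded on the X chromosome, stood at 9.73, 10.5, 6.27 and 10.4 CPM in MLL-ENL libraries, against 29.9, 38.2, 39.2 and 34.6 CPM in controls (-1.95 ± 0.22, adjusted p = 9.2e-08). Gramd3, a membrane contact protein, stood at 8.13 ± 1.89 CPM against 50.5 ± 22 CPM in controls (-2.63 ± 0.28, adjusted p = 2.7e-08), and Hfe, the regulator of iron uptake, at 19.7 ± 5.67 CPM against 74.1 ± 22.9 CPM (SD, 4 libraries each; -1.91 ± 0.24, adjusted p = 1.5e-06). In each of these genes all MLL-ENL libraries lay below all controls, which the rule for naming genes by p-value required. Stx7, a syntaxin of late endosomes, Fgl2, a fibrinogen-like protein, Lpxn, a focal adhesion adaptor, Fam129a and Tmem156 also fell, by 1.23 to 2.41 on the log2 scale with adjusted p between 6.1e-07 and 9.2e-06. Among the largest falls were Sult1a1, a sulfotransferase, Nrp1, the co-receptor neuropilin 1, Adcy4, an adenylate cyclase, and Klrk1, the receptor NKG2D (-3.01 ± 0.56, -3.0 ± 0.65, -3.28 ± 0.66 and -3.78 ± 0.72). Klrk1 was 1 of 4 genes that fell among 22 of NK, innate lymphoid and T cells (2 without MLL-ENL 4). None of 24 early lymphoid and B cell genes passed.

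Most transcription factors of the lineages were not called, though more fell than the 5.18% of all genes tested. Of 65 tested 10 fell and none rose, and the median was 0.01. Id3, a partner of Id2 in blocking E proteins, stood at 94.9, 43.4, 35.6 and 56.1 CPM in MLL-ENL libraries, against 363, 276, 224 and 404 CPM in controls (-2.46 ± 0.46, adjusted p = 0.00051). Irf5, which turns on inflammatory genes in macrophages, stood at 79.2, 78.5, 68.3 and 78.8 CPM, against 220.2, 179.9, 135 and 239.5 CPM in controls (-1.35 ± 0.24, adjusted p = 0.00024). Both were lower in every MLL-ENL library than in any control, and both passed in every fit that left out 1. Batf3, required for type 1 dendritic cells, fell as well (-2.69 ± 0.69, adjusted p = 0.012), but not without control 2 (adjusted p = 0.054) or MLL-ENL 4 (0.063). The count of 10 dropped to 3 without MLL-ENL 4, 4 without MLL-ENL 3, 5 without control 5, and 6 without control 2 or 3, or without MLL-ENL 2 or 5. Of 46 cytokine receptors 2 rose, Il9r and Tgfbr1 (0.69 ± 0.18, adjusted p = 0.012), and 5 fell. The counts were 1 that rose without control 2, and 3 that fell without control 2, control 5 or MLL-ENL 4. They are to be read beside 2.42% higher and 5.18% lower among all genes tested.

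**Figure D4:**
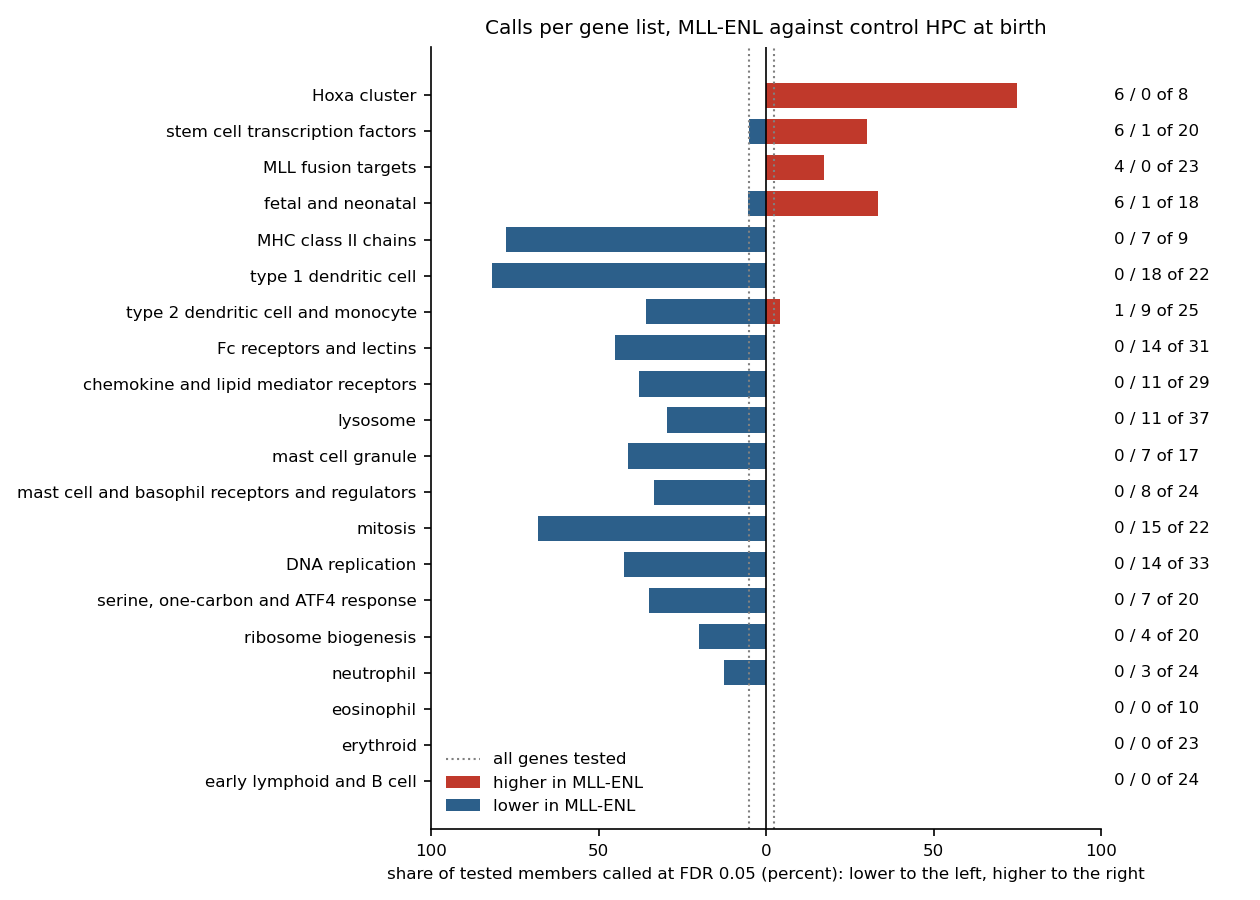
Share in percent of the tested members of 20 gene lists that were called at FDR 0.05, genes that rose to the right and genes that fell to the left of 0, with dotted lines at the share of all genes tested and the counts at the right edge. The Hoxa cluster had 6 of 8 higher, and type 1 dendritic cell genes had 18 of 22 lower.

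Genes of cell division were lower in MLL-ENL HPC by smaller steps. Of 22 mitosis genes 15 fell and none rose (median -0.68), and their summed level was 1871, 2248, 2001 and 1797 CPM in MLL-ENL libraries, against 3389.7, 2849.7, 3489 and 2674 CPM in controls. Birc5, survivin of the chromosomal passenger complex, stood at 96.5, 99.5, 72.5 and 71.3 CPM, against 164, 134, 193 and 127 CPM in controls (-0.86 ± 0.16, adjusted p = 0.00066). Ube2c, the ubiquitin-conjugating enzyme of the anaphase-promoting complex, stood at 52.5, 59.8, 63.4 and 52.3 CPM, against 117, 101, 117 and 76.9 CPM in controls (-0.85 ± 0.19, adjusted p = 0.0031). Neither gene overlapped between the groups. The count moved with single libraries, to 5 without MLL-ENL 5, 7 in the fits without control 2, without control 4, without MLL-ENL 2 and without MLL-ENL 4, and 8 without MLL-ENL 3. Plk1 and Bub1b did not pass, at 70.4 ± 16.9 and 116 ± 17.9 CPM in MLL-ENL libraries against 106 ± 13.6 and 169 ± 16.4 CPM in controls (SD, 4 libraries each).

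DNA replication genes were lower as well. Of 33 tested 14 fell and none rose (median -0.53), and the sums were 4614, 5696, 5361 and 4986 CPM in MLL-ENL libraries, against 7031, 6713, 7378 and 7175 CPM in controls. Mcm10, which starts the replication fork, stood at 45.7, 63.1, 46.2 and 52.6 CPM, against 99.0, 87.1, 84.9 and 83.2 CPM in controls (-0.77 ± 0.17, adjusted p = 0.003). Gins1, a subunit of the replicative helicase, stood at 36.6, 51.3, 33.8 and 38.8 CPM, against 68.9, 60.3, 82.7 and 63.2 CPM in controls (-0.78 ± 0.17, adjusted p = 0.0024). Both genes were lower in all 4 MLL-ENL libraries than in any control. The count was 4 without MLL-ENL 5, 5 without MLL-ENL 4, 7 without control 2 and 8 without control 4. Mcm3 and Rrm1, parts of the helicase and of ribonucleotide reductase, did not pass (-0.44 ± 0.20 and -0.46 ± 0.19).

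Few regulators of the entry into the cycle were called. Myc (chromosome 15, 61985391 to 61990374), the transcription factor that drives growth and division, stood at 146, 243, 235 and 244 CPM in MLL-ENL libraries, against 491, 526, 495 and 342 CPM in controls (-1.09 ± 0.27, adjusted p = 0.0075). Rbl2, the pocket protein p130 that silences cell cycle genes in resting cells, stood at 29.6, 30.5, 26.5 and 29.3 CPM, against 15.0, 15.3, 10.7 and 17.8 CPM in controls (0.98 ± 0.21, adjusted p = 0.0024). Neither overlapped, and 17.1% of the 50-base words of Rbl2 also lay in a gene on the opposite strand. Cdk4, Ccnd2 and Trp53 did not pass. Of 31 genes of the list 1 rose and 2 fell, shares near those of all genes tested (2.42% higher and 5.18% lower). The second that fell was Ccne1 (-0.95 ± 0.24, adjusted p = 0.011), and 1 fell without control 4, MLL-ENL 3 or MLL-ENL 4.

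Metabolic genes tied to growth were lower in part, to be read beside 5.18% lower among all genes tested. Of 20 genes of serine, one-carbon and ATF4 metabolism 7 fell and none rose (median -0.66), with 2 to 5 when 1 library was left out. The count was 2 without MLL-ENL 2 or MLL-ENL 5 and 3 without control 3, 4 or 5, or without MLL-ENL 3 or 4. Shmt1, which passes carbon from serine to folate, stood at 90.3, 119.9, 127 and 103 CPM in MLL-ENL libraries, against 196, 169, 224 and 170.4 CPM in controls (-0.79 ± 0.17, adjusted p = 0.0029). In glycolysis 4 of 20 fell (2 without control 4 or 5, or without MLL-ENL 2 or 4). The enzyme Pfkp stood at 44.3, 82.4, 71.3 and 87.4 CPM, against 109, 154, 116 and 189.7 CPM in controls (-0.99 ± 0.24, adjusted p = 0.0067), and the lactate transporter Slc16a1 at 8.65, 8.34, 10.8 and 10.7 CPM, against 21.1, 24.4, 22.8 and 25.8 CPM (-1.29 ± 0.28, adjusted p = 0.0029). Aldoa and Pkm, the most abundant members by CPM without regard to length, did not pass. Of 24 cholesterol genes 2 fell (1 without MLL-ENL 5), a share near that of all genes tested. Of these the isomerase Ebp stood at 87.3, 99.1, 98.8 and 99.6 CPM against 151, 156, 152 and 153 CPM in controls (-0.67 ± 0.13, adjusted p = 0.00068). Of 20 ribosome biogenesis genes 4 fell, but 1 without MLL-ENL 2 and 2 without control 2 or 4, or without MLL-ENL 4 or 5. Npm1, a chaperone of the nucleolus, was one of them (-0.71 ± 0.16, adjusted p = 0.0048), with 24.3% of its 50-base words also in another gene.

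The remaining lists held small numbers of called genes, to be read beside 2.42% higher and 5.18% lower among all genes tested. Of 25 innate sensors 5 fell and none rose, among them Ly86, a partner of the Toll-like receptor Cd180 (13.1 ± 5.47 CPM in MLL-ENL and 102 ± 30.1 CPM in control libraries, SD, 4 libraries each; -2.96 ± 0.66, adjusted p = 0.0036). Of 30 genes of the Notch, Wnt, Hedgehog and BMP pathways 3 fell (1 without MLL-ENL 4), among them the Wnt receptor Fzd1 at 0.226, 0.0623, 0.226 and 0.418 CPM, against 5.87, 2.66, 1.95 and 3.47 CPM in controls (-3.84 ± 0.81, adjusted p = 0.0021). Its groups were separate. Of 22 apoptosis regulators 3 fell (1 without MLL-ENL 4 or MLL-ENL 5), and of 26 interferon response genes 3 (none without MLL-ENL 2, and 1 without any other but control 2). In the p53 response 1 of 19 rose and 1 fell, and of the 19 immediate early genes Myc alone fell.

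Fewer genes were called in the other populations, where newborn control pGM had 3 libraries and each other group 4. Newborn pGM had 24 genes higher (0.161% of those tested) and 28 lower (0.188%) in MLL-ENL libraries, newborn GMP 12 higher (0.0805%) and 5 lower (0.0336%), and HPC at 10 weeks 18 higher (0.121%) and 8 lower (0.0537%). At 10 weeks the MLL-ENL libraries labelled 73 went against their labels. The HPC library held 20245 CPM on neutrophil genes, against 2705 to 4318 CPM in the other 3 of its group, and the pGM library 3359.9 CPM, against 18834 to 28973 CPM in the other 3 of its own. Each thus lay at the level of the other population. Without the HPC library labelled 73, in a fit added after the data were seen, 13 genes were higher (0.0873%) and 5 lower (0.0336%) at 10 weeks, 12 and 5 of them also called with it. Of the 24 genes higher in newborn pGM 21 were also higher in newborn HPC, which is 87.5% of the pGM list and 5.82% of the HPC list. They included Skida1, Mecom, Meis1, Hoxa9, Hoxa10, Il9r, Pcdh7, Chga, Ednra and Hnf4a. Of the 28 lower in pGM 17 were shared (60.7% and 2.2%), with Cd74, H2-Aa, H2-Eb1, Id2, Naaa and Ptger2 among them. The GMP lists shared 9 of 12 higher (75% and 2.49%) and 2 of 5 lower (40% and 0.259%), and the lists of HPC at 10 weeks 7 of 18 higher (38.9% and 1.94%) and 3 of 8 lower (37.5% and 0.389%). Without the library labelled 73 the lists at 10 weeks shared 8 of 13 higher (61.5% and 2.22%) and 2 of 5 lower (40% and 0.259%), and Skida1, Pcdh7 and Sva remained on the higher one. No gene was called in the opposite direction. Skida1, Pcdh7 and Sva were on all 4 lists of genes that rose, with log2 fold changes of Skida1 of 4.09, 4.14, 4.78 and 4.52 in newborn HPC, pGM and GMP and in HPC at 10 weeks.

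Whether the effect of MLL-ENL itself differed between populations was tested as a difference of log2 fold changes, that in newborn HPC minus that in the other population. Against newborn pGM it differed for 6 genes (0.0403%), and 987 had an unadjusted p under 0.05. Those with a more positive effect in HPC were Nsmaf (difference 1.09 ± 0.22, adjusted p = 0.043), Xdh (3.66 ± 0.64, adjusted p = 0.005) and Mapk4 (5.57 ± 1.08, adjusted p = 0.022), a kinase gene named after its values were seen. Xdh averaged 16.3 CPM in MLL-ENL and 3.09 CPM in control HPC, but 2.83 and 6.87 CPM in pGM. Mapk4 averaged 0.411 CPM in MLL-ENL and 1.30 CPM in control pGM, and 6.01 and 4.65 CPM in GMP. In HPC it had 63 counts in all MLL-ENL libraries together and 3 in all controls. Those with a more negative effect in HPC were Cst3 (-1.99 ± 0.29, adjusted p = 0.00043), H2-DMb1 (-1.66 ± 0.26, adjusted p = 0.00077) and H2-DMa (-1.58 ± 0.30, adjusted p = 0.019). Cst3 averaged 711 CPM in MLL-ENL and 4046 CPM in control HPC, but 453 and 652 CPM in pGM. In a fit of the 4 compared groups alone Cst3, H2-DMa and Nsmaf missed the threshold (adjusted p = 0.055 each), as did H2-DMb1 (0.068). Nsmaf also missed it in 12 fits that left out 1 library (adjusted p between 0.058 and 0.148) and H2-DMa in 6 (between 0.057 and 0.099). Mapk4 missed it in the fit of the compared groups (0.068) and in 6 fits that left out 1 library.

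Against newborn GMP the effect differed for 69 genes (0.463%), 11 toward a rise and 58 toward a fall in HPC. Cst3 (-2.81 ± 0.28, adjusted p = 1.6e-08), H2-DMb1 (-2.45 ± 0.25, adjusted p = 1.6e-08), H2-DMa (-2.33 ± 0.29, adjusted p = 2.8e-06) and H2-Ab1 (-3.65 ± 0.52, adjusted p = 5e-05) were among them. In GMP the class II chains were low in both genotypes, with a summed level of 351 to 435 CPM in MLL-ENL and 200.4 to 360.3 CPM in control libraries, against 1385 to 3639 CPM in MLL-ENL HPC and 9668 to 24553 CPM in control HPC. H2-DMa averaged 224 CPM in MLL-ENL and 129.5 CPM in control GMP, and the effect on Gm2a differed likewise (difference -1.70 ± 0.26, adjusted p = 0.00013). Nsmaf differed in the other direction (1.66 ± 0.22, adjusted p = 8.1e-06), at 37.5 CPM in MLL-ENL and 33.8 CPM in control GMP.

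Against HPC at 10 weeks the effect differed for 238 genes (1.6%), 53 toward a rise and 185 toward a fall in newborn HPC. Of these 46 were called higher in newborn HPC, 157 were called lower and 35 were not called there. Cst3 (-2.77 ± 0.28, adjusted p = 2.9e-08), H2-DMb1 (-2.09 ± 0.24, adjusted p = 9.5e-07), Gm2a (-1.81 ± 0.26, adjusted p = 4.3e-05) and Nsmaf (1.41 ± 0.22, adjusted p = 0.0002) were again among them. In HPC at 10 weeks H2-DMb1 averaged 70.8 CPM in MLL-ENL and 66.9 CPM in control libraries, and the class II chains summed to 1437 to 2114 CPM in MLL-ENL and 1453 to 2024 CPM in control libraries. All 4 newborn control HPC libraries lay above both groups at 10 weeks in this sum, whereas the newborn MLL-ENL libraries overlapped with them. Cpa3 had a difference of -5.78 ± 0.82 (adjusted p = 4.3e-05), with 92.7 CPM in MLL-ENL and 17.9 CPM in control HPC at 10 weeks. Klhl4 (5.57 ± 0.73, adjusted p = 1.2e-05) averaged 0.545 CPM in MLL-ENL and 13.7 CPM in control HPC at 10 weeks, and Tifab (-3.57 ± 0.54, adjusted p = 0.00013) 156 and 23.3 CPM. Without the HPC library labelled 73 the effect differed for 116 genes. The 7 genes given here still differed, with Cpa3 at -4.28 (adjusted p = 0.00044) and a mean of 33.9 CPM in the other 3 MLL-ENL libraries, and Tifab at -2.98 (adjusted p = 0.0012) and 108 CPM. The class II chains then summed to 1630.1 to 2114 CPM in MLL-ENL HPC at 10 weeks. The counts were of that size also without MLL-ENL 4 (123), control 2 (120), or the 10 week controls 76 (118) or 87 (120), and 137 and 146 without MLL-ENL 3 and 5.

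**Figure D5:**
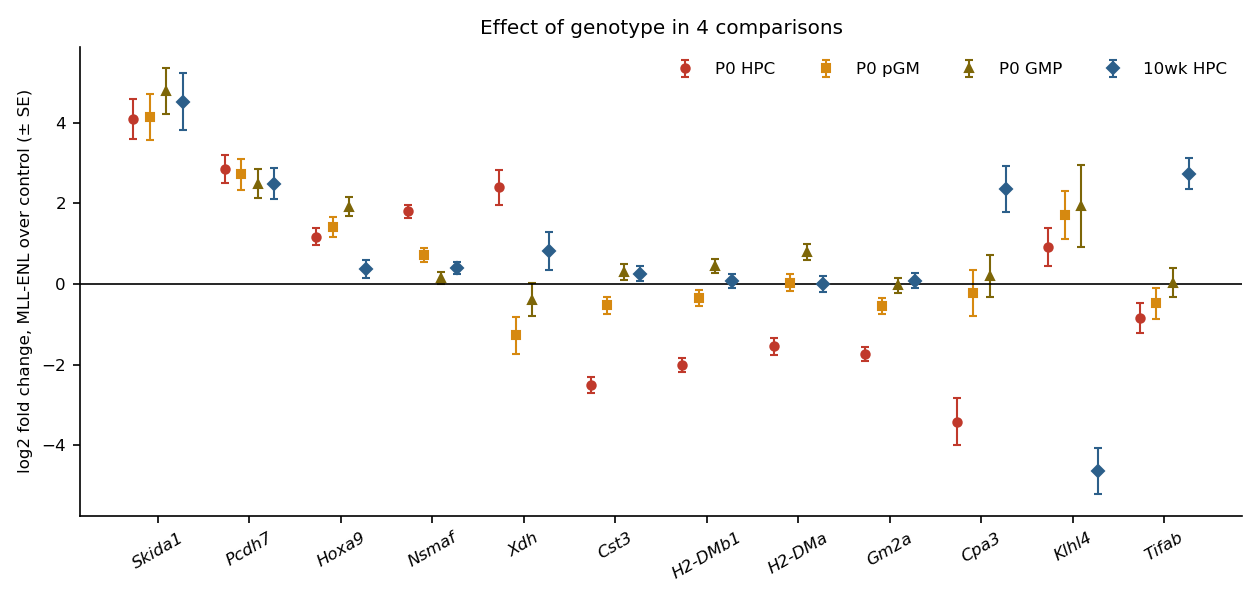
Log2 fold change (MLL-ENL over control) with its SE for 12 genes in newborn HPC, pGM and GMP and in HPC at 10 weeks (library 73 included), with a line at 0. Skida1 and Pcdh7 lay above 0 in all 4 comparisons, whereas Cst3 and H2-DMb1 lay at -2.51 and -2.0 in newborn HPC and between -0.52 and 0.45 in the others.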

How the data were processed

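RNA of sorted progenitors was sequenced from Clontech SMARTer libraries after extraction by Qiagen RNeasy micro plus, per the labels' protocols. The deposited file holds unscaled read counts for each Ensembl gene, which the authors obtained with STAR 3.0.4, Subread and featureCounts 1.4.5, per the submitters' processing notes. Their genome build, gene annotation and strandedness were not given in the sources used here. Of 41388 mouse genes in it, 40254 took a symbol and position from GENCODE vM21 on GRCm38; the other 1134 took 0.172% of counts. Nothing in the labels says that libraries of a group come from separate animals, so p-values measure the spread between these libraries, which may be technical, and counts of reads without molecular identifiers carry counting error besides.

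The counts of 47 libraries at P0 and 10 weeks were fitted in edgeR 4.0.16 (R 4.3.3) with TMM scaling (factors 1.03 to 1.32 in the 8 libraries compared), filterByExpr and 1 mean per group of 12, so that all groups share 1 estimate of the spread (common biological coefficient of variation 0.297). Quasi-likelihood F tests were adjusted by Benjamini-Hochberg over 14899 genes and called at FDR 0.05. Levels are TMM-scaled CPM, except those of the transgene, and log2 fold changes have SE. The procedure was tested on simulated counts drawn independently for each library and gene. Shifts shared by the genes of a library were not simulated, so false calls from such shifts were not measured. Differences of effects were contrasts of 4 groups, and the transgene was compared by a 2-sided exact permutation test. Beside these, DESeq2 1.42.0, RLE scaling, no filter on low counts, fits of fewer or all libraries, the replicate number, Y-linked expression and leaving out each library were tried.

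The comparison, 50 gene lists with 995 genes (3 symbols unmatched) and the naming rule were set with earlier results of these data known. The rule took the 30 largest rises and the 30 largest falls past FDR 0.05. Their mean log2 CPM had to reach 1 (prior count 2), without overlap and with no predicted gene model. It also took the 20 with the smallest p under the same conditions, and per list up to 6 called members and 3 others with the highest level. Hoxa and Hoxb genes, Meis1, Kmt2a and Mllt1, and up to 10 genes per difference of effects were taken as well. A floor of 3 counts applied to genes near 0 over a group, for counting error only. Exons of named genes were cut into 50-base words to count words shared with other genes. Tables and figures were made in Python 3.11.15 with numpy 2.4.6, pandas 2.3.3, matplotlib 3.10.9 and scipy 1.17.1. Not all genes taken by the rule are reported by name here, Mllt1 among those left out, and some genes of the lists are only counted.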

Additional observations from a re-analysis of the deposited data

Results flagged for a closer look

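Single libraries stood apart from the other 3 of their group in 27 of 346 groups of named genes examined by Dixon's test at 95%, which chance flags in about 1 in 20 groups; the cause was not tested. MLL-ENL 2 was far above the other MLL-ENL libraries for dendritic cell genes, with Ciita at 13.3 CPM (next 4.65 CPM), Naaa at 76.0 CPM (next 22.4), Itgae at 9.61 CPM (next 2.35) and Dnase1l3 at 21.3 CPM (next 6.01). It was below the others for Myc at 146 CPM (next 235) and Ebp at 87.3 CPM (next 98.8). Control 4 was far above the other controls for the mast cell genes Cma1 at 558 CPM (next 186) and Tph1 at 50.5 CPM (next 8.46), and control 2 for Xcr1 at 52.1 CPM (next 11.4) and Tifab at 372 CPM (next 151). Further libraries were Flt3 in control 5 at 313 CPM, Pecam1 in control 5 at 77.0 CPM, Large2 in control 5 at 0.909 CPM, Wfikkn2 in control 3 at 3.14 CPM, Pknox1 in control 3 at 53.7 CPM, Trpc6 in control 2 at 0.403 CPM, Nfe2 in MLL-ENL 5 at 212 CPM, Irf5 in MLL-ENL 4 at 68.3 CPM and Stx7 in MLL-ENL 4 at 29.8 CPM. Near 0, a few counts in 1 library were enough: Cd3e at 0.113 CPM, Fcer1a at 0.113 CPM and Col1a1 at 0.792 CPM in MLL-ENL 2, Pax5 at 0.157 CPM in MLL-ENL 5, Col1a1 at 0.331 CPM in control 5, Mapk4 at 0.205 CPM in control 3, Hbb-bh1 at 0.115 CPM in control 2 and Trim71 at 0.0610 CPM in control 4.

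The effect of MLL-ENL differed between newborn HPC and another population for the genes named in the report, as tested by edgeR's contrast of 4 groups. Minus the effect in newborn pGM the differences were 3.66 for Xdh, -1.99 for Cst3, 1.09 for Nsmaf, -1.66 for H2-DMb1, -1.58 for H2-DMa and 5.57 for Mapk4, all on the log2 scale. Minus that in newborn GMP they were -2.81 for Cst3, -2.45 for H2-DMb1, -2.33 for H2-DMa, 1.66 for Nsmaf, -3.65 for H2-Ab1 and -1.70 for Gm2a. Minus that in HPC at 10 weeks they were -5.78 for Cpa3, -2.77 for Cst3, 1.41 for Nsmaf, -2.09 for H2-DMb1, -1.81 for Gm2a, 5.57 for Klhl4 and -3.57 for Tifab.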

How the results depend on the processing

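The count of genes that rose was 361, and 820 with the 8 libraries fitted alone, 586 with the 23 newborn libraries and 576 with all 84. It was 288 with no filter on low counts, 133 at FDR 0.01, and 215 to 296 with 1 library left out. The count that fell was 772, and 758 with the 8 libraries fitted alone, 1076 with the 23 newborn libraries and 822 with all 84. It was 495 with no filter on low counts, 307 at FDR 0.01, and 355 to 627 with 1 library left out. Differences from newborn pGM numbered 6, and 42 in DESeq2, 1 with the compared groups alone, 34 with all 84 libraries, 3 at FDR 0.01, and 4 to 14 with 1 library left out, the 14 without control 4. Those from GMP numbered 69, and 157, 130 and 124 under the first 3 of these settings, 178 with the 23 newborn libraries, 30 at FDR 0.01, and 37 to 87 with 1 left out. Those from HPC at 10 weeks numbered 238, and 375, 133 and 358, 66 at FDR 0.01, and 116 to 328 with 1 left out. Deviations of libraries of the same number correlated at 0.59 for number 2, 0.03 for 3, -0.03 for 4 and 0.46 for 5. Those of different numbers correlated at -0.42 to 0.45. Pairing by number was thus seen for some libraries at most, what the number stands for was not tested, and the main fit ignores it. With the replicate number of the newborn libraries as a block 455 genes rose and 993 fell. For the differences the block was the number within each age and genotype, shared by its populations, and they numbered 18, 158 and 581. The cause was not tested for any of these. The transgene mean was 13.7 to 16.4 CPM in MLL-ENL libraries with 1 left out (exact permutation p = 0.057, the smallest that 3 against 4 allow). No called gene named here changed its direction under any of these. RLE against TMM scaling moved the median of all genes by about 0.05 on the log2 scale (0.019 against -0.030). With 4 libraries a group, and 3 for newborn control pGM, small changes of low genes were not detectable at this depth.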
